A study of Mus musculus with 2 samples.

Results

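The genes described here are 36 genes that endothelium expresses at higher levels than most other tissues, from surface receptors and secreted proteins to signalling and nuclear proteins. They were taken from a list of gene symbols that was chosen with earlier results of these data known. All probesets that the platform annotation names with 1 of these symbols alone were collected. The array annotation names 35 of the 36, out of 21947 genes named in all. It names Adgrl4, Adgrf5 and Ecscr by older symbols (Eltd1, Gpr116 and 1110006O17Rik), and it holds no probeset under the name of Ccm2l. The 35 genes have 496 probesets, and 31 of them were measured, which means that at least 4 of their probesets were bright. Bright means that the higher of a probeset's values on the 2 arrays was at or above the median of the whole table, 3.17 in log2 intensity.

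The study asked what changes in blood-forming cells when LSD1, a histone demethylase that takes part in gene repression, is inhibited. Cells of the mouse embryonic stem cell line Bry-GFP were differentiated as embryoid bodies, and the FLK1+ mesoderm was isolated on day 3. It was cultured with DMSO, the solvent control, or with compound B, an inhibitor of LSD1 given by its code name, at 300 nM, and the CD41+ cells of each culture were sorted on culture day 2. Total RNA of each sort was hybridised to 1 Affymetrix array, so the DMSO group and the inhibitor group each hold 1 array from the same line. No test between the conditions was possible, the number of arrays limits the precision, and an SD given beside a gene is the spread over its own probesets within the 2 arrays. The arrays measured bulk RNA, in which fewer cells of a type and less RNA per cell cannot be told apart.

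Endothelial cells line the vessels and are recognised by proteins at their surface, by the junctions that seal neighbouring cells and by enzymes that act on blood flow and clotting. In the embryo, a specialised endothelium termed hemogenic turns into blood cells, and in doing so it lowers endothelial genes while it gains blood genes such as Itga2b, which encodes the sort marker CD41. Several of the genes here, among them Cd34, Podxl, Procr, Cd93 and Fgd5, are also known from early blood progenitors.

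The label of the samples, hemogenic endothelial cells, was compared with marker lists. Of 15 defining endothelial markers 14 were measured, and all 14 lay above the table's median value in both arrays. The brightness filter favours that outcome, and it also held for the erythroid and myeloid lists, so it does not bear on the label. Cdh5, which encodes VE-cadherin, was at 7.89 in the DMSO array and 9.84 in the inhibitor array, Pecam1 at 6.84 and 7.78, and Kdr, which encodes FLK1, at 6.41 and 7.36. Vwf went the other way, at 4.61 and 4.27 (inhibitor minus DMSO -0.29). Of the 14 markers, 13 differed by more than 0, against 59.0% of all measured genes. Itga2b was at 6.19 with DMSO and differed by -0.12. Erythroid markers were also bright in both sorts: their summed linear intensity over 14 measured markers was 11787 in the DMSO array and 3919 in the inhibitor array. The globin genes Hba-x and Hbb-y, at 12.46 and 11.32 in the DMSO array, made up most of that array's sum. The globin gene Hbb-bh1 was at 11.19 with DMSO and 10.49 with the inhibitor, and differed by only -0.29. Of the 14 markers, 9 were lower past the size rule given below.

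Of the 31 measured endothelial identity genes, 16 were higher in the inhibitor array past the size rule, none was lower and 15 were neither. The size rule asks that a gene's difference (inhibitor minus DMSO) reach 1 in log2, a 2-fold change, and that 75% or more of its bright probesets go that way. Among all 15087 measured genes, 1.72% were higher and 0.563% were lower by the same rule. The 16 were She, Adgrl4, Cd93, Egfl7, Plvap, Arhgef15, Procr, Arap3, Ecscr, Bcl6b, Fgd5, Tspan18, Rasip1, Thsd1, Ece1 and Ptprm, in falling order from 2.18 to 1.03. A difference above 0 was seen in 25 of the 31, against 59.0% of all measured genes. The median difference of the 31 was 1.03, and that of all measured genes was 0.06. The differences were not uniform: those of Cd34, Podxl, Cyyr1, Robo4, Mcam and Heg1 were below 0, and the 31 genes spanned -0.53 to 2.18.

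**Figure D1:**
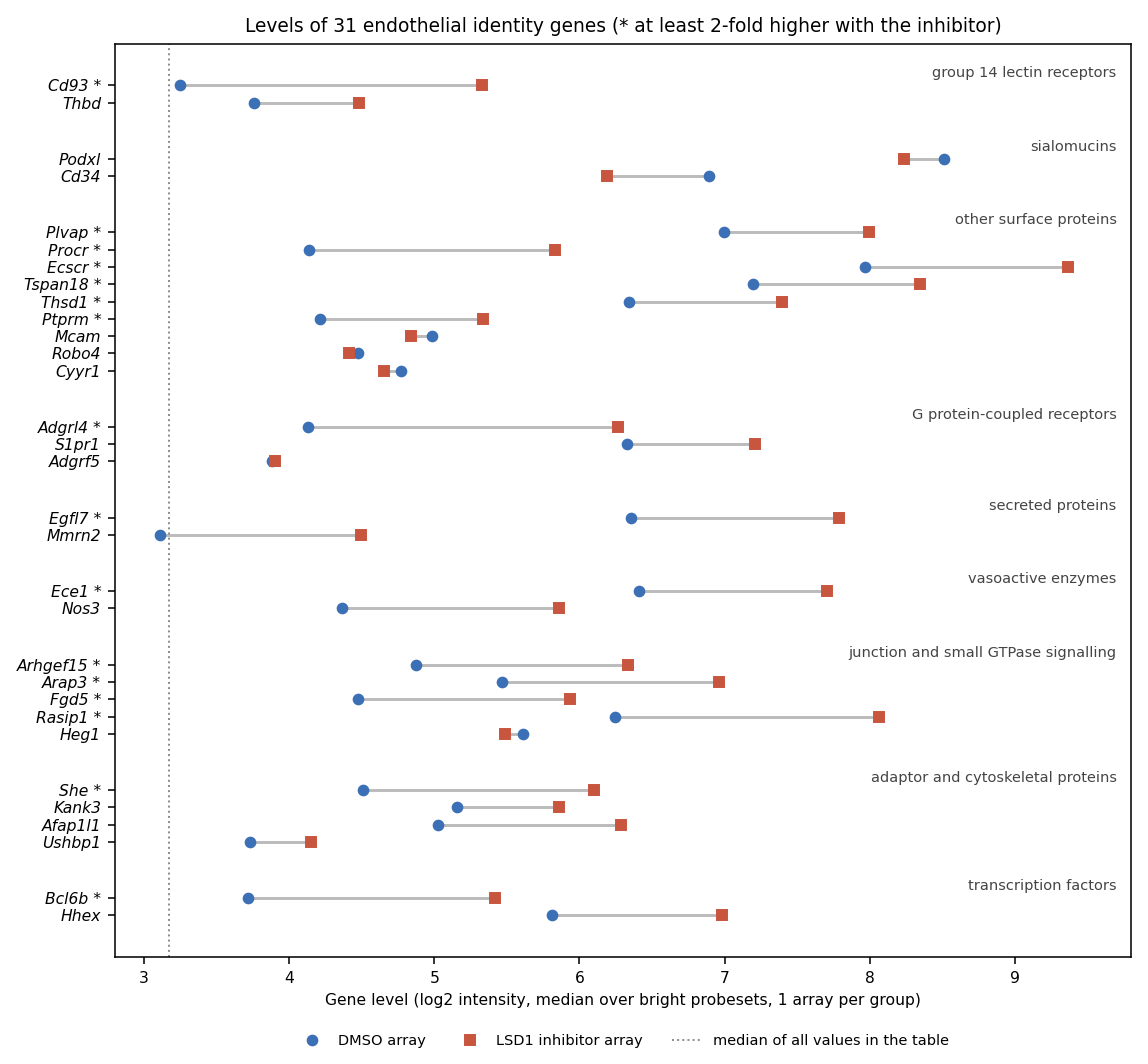
Level of each of the 31 measured genes in the DMSO array (circle) and the inhibitor array (square), in log2 intensity as the median over bright probesets, grouped by what the protein does; a star marks the 16 genes past the size rule. The squares lie to the right of the circles for most genes, the exceptions being Cd34, Podxl, Mcam, Robo4, Cyyr1 and Heg1, and levels of different genes are not compared because probesets differ in their response.

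A gene's difference is the median over its probesets, so the threshold falls inside a continuous range. Just inside it were Ptprm at 1.03, Ece1 at 1.08 and Thsd1 at 1.10, and just outside were Hhex at 0.98, Nos3 at 0.93 and S1pr1 at 0.82, the last 3 with all of their bright probesets higher. With a 1.5-fold threshold, 22 of the 31 genes were higher and none was lower, where 5.85% and 2.66% of all measured genes passed. When dim probesets were kept, 32 of the genes had at least 4 probesets and 15 were higher past the size rule, against 1.13% of 18027 genes. The filter accepts a probeset that is bright in either array. Of the 437 bright probesets of the 31 genes, 372 were at or above the table's median in both arrays, 52 in the inhibitor array alone and 13 in the DMSO array alone. Of the 437, 340 were higher in the inhibitor array (77.8%), compared with 54.9% of the probesets of all measured genes. The filter fixed the sign of the 52 and of the 13, so these probesets are no support for a difference. The same filter was applied to all measured genes, but their probesets bright in 1 array alone were not counted.

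**Figure D2:**
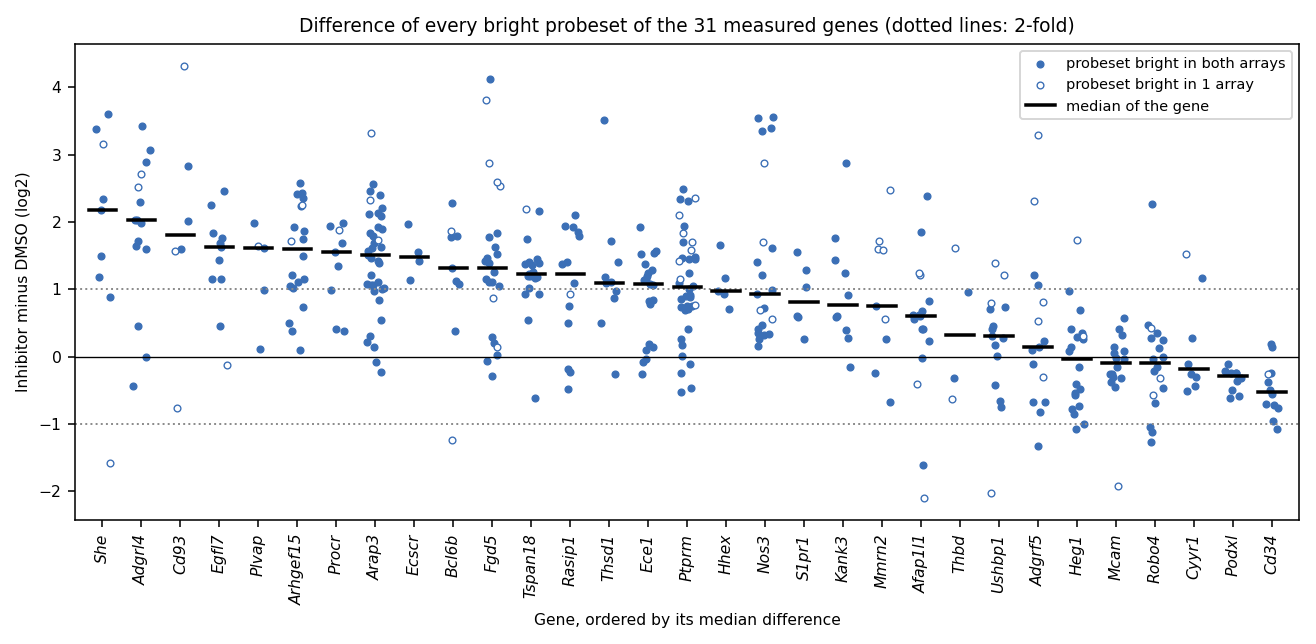
Difference (inhibitor minus DMSO, log2) of every bright probeset of the 31 genes, ordered by the gene's median (black bar); filled points were bright in both arrays, open points in 1, and dotted lines mark 2-fold. Genes on the left, such as She (median 2.18), have most probesets above the upper line, whereas the probesets of Heg1, Mcam and Robo4 fall on both sides of 0.

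The promoters of genes at both ends of this range were compared for short sequence motifs. RefSeq promoter windows (GRCm38.p6) were matched by symbol for 20 of the 36 genes, 26 windows in all, and the 250 bases before each start were searched. The 6 windows printed here belong to the 3 highest and the 3 lowest of the 15 measured genes with 1 window. Capitals mark matches to an ETS motif, AGGAAG or CGGAAG on either strand, or to a GATA motif, AGATAA or TGATAA on either strand.
She promoter, chr3:89831120-89831369, plus strand: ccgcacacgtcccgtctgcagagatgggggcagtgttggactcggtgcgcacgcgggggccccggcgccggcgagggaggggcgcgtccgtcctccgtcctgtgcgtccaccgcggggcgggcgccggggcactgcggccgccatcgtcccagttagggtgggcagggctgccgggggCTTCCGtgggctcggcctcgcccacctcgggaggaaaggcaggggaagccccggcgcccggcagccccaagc
Adgrl4 promoter, chr3:151437632-151437881, plus strand: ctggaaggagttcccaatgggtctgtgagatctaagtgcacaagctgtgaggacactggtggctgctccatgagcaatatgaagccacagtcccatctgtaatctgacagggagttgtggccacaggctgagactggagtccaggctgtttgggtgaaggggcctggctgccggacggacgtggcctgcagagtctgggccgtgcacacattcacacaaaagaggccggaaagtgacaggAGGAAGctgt
Procr promoter, chr2:155750967-155751216, plus strand: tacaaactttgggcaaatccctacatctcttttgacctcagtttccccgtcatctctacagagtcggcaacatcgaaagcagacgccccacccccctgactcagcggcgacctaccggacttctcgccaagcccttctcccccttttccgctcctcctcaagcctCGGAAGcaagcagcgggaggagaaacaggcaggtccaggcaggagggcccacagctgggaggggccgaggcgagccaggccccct
Robo4 promoter, chr9:37401722-37401971, plus strand: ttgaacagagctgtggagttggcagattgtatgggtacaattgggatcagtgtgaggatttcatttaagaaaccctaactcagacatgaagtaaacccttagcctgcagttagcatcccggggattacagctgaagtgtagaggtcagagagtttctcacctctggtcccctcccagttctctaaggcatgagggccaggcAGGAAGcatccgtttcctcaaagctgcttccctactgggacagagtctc
Cyyr1 promoter, chr16:85550374-85550623, minus strand: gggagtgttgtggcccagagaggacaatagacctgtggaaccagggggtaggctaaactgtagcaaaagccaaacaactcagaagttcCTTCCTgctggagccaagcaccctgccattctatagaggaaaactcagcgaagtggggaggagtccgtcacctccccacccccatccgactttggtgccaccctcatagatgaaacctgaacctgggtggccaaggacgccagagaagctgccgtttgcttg
Cd34 promoter, chr1:194938571-194938820, plus strand: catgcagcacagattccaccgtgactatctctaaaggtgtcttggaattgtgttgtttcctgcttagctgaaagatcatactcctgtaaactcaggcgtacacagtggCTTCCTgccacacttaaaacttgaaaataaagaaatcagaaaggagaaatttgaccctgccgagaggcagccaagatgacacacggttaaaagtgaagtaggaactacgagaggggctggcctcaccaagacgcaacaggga
Each of the 6 windows held 1 ETS match and no GATA match, both for She, Adgrl4 and Procr, which were higher, and for Robo4, Cyyr1 and Cd34, which were not. ETS factors act throughout endothelium, and their motif stood in 16 of the 26 windows (61.5%), against 39.2% of 32851 promoter windows of the same length. It was found in 9 of 14 windows of the higher genes and in 7 of 10 windows of the genes that were neither. A GATA match stood in 3 of the 26 windows (11.5%, against 16.6% of all), and the SOX motif ACAATG in 1 (3.85%, against 10.7%). The GFI1 motif AATCAC was in none of the 26, against 9.14% of all windows. These matches describe letters in a short window and are not evidence of binding.

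Among the lectin receptors of group 14, a small family of endothelial surface proteins, Cd93 and Thbd were measured and Clec14a was not. Cd93 had a level of 3.25 in the DMSO array, close to the table's median, and 5.33 with the inhibitor (difference 1.81, SD 1.68; 5 of 6 bright probesets higher). Its probesets ran from 1.53 to 3.94 with DMSO and from 2.86 to 6.13 with the inhibitor, so the ranges overlapped. The 3 Cd93 probesets that were bright in both arrays gave a median of 2.02. Thbd, thrombomodulin, which lets thrombin activate protein C, is the next gene to Cd93 on the chromosome in the RefSeq order. It was at 3.76 and 4.48 and its 4 probesets were divided, 2 higher and 2 lower (difference 0.32, SD 1.05). Clec14a had 3 probesets, at 3.96, 4.20 and 6.04 with DMSO and at 4.88, 4.55 and 5.74 with the inhibitor, so its differences of 0.92, 0.35 and -0.30 did not share a sign.

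Both sialomucins, heavily glycosylated surface proteins of endothelium and of early blood progenitors, were below 0 without passing the size rule. Cd34 was at 6.89 with DMSO and 6.19 with the inhibitor (difference -0.53, SD 0.39), with 10 of 12 probesets lower. Podxl, podocalyxin, was at 8.51 and 8.23 (difference -0.28, SD 0.17), and all 10 of its probesets were lower, between -0.61 and -0.11. Podxl was the only one of the 31 genes with every bright probeset lower. The share of all measured genes with that trait was not counted, so no contrast is drawn from it. Every bright probeset was higher in 7 genes, which 4.64% of all measured genes had. The 7 were Plvap, Ecscr, Procr, S1pr1, Nos3, Arhgef15 and Hhex.

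Of the 9 other measured surface proteins, 6 were higher and 3 were neither. Ecscr, a regulator of endothelial chemotaxis, was at 7.97 with DMSO and 9.36 with the inhibitor (difference 1.49, SD 0.35). Its 4 bright probesets read between 7.13 and 8.28 with DMSO and between 9.10 and 9.60 with the inhibitor. The remaining Ecscr probeset was dim, at 2.44 with DMSO and 2.65 with the inhibitor. Plvap, which forms the diaphragms of fenestrae and caveolae, was at 6.99 and 7.99. The difference of 1.61 (SD 0.74) is larger than the gap between those levels because it is the median of the 5 paired probeset differences, which were 1.61, 0.11, 1.99, 0.997 and 1.64. Procr, the endothelial protein C receptor, was at 4.14 and 5.83 (difference 1.55, SD 0.63, 9 of 9 probesets higher). With even-ranked probesets alone it was at 0.98.

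Tspan18, a tetraspanin of endothelium, was at 7.19 with DMSO and 8.34 with the inhibitor (difference 1.24, SD 0.59), with 18 of 19 bright probesets higher. It was past the size rule in each of 16 alternative settings, of which 5 changed no listed gene's difference and so add no support. Thsd1, a membrane protein with a thrombospondin type 1 domain, was at 6.34 and 7.39 (difference 1.10, SD 0.97, 9 of 10 probesets higher), and its probeset differences reached from -0.25 to 3.52. Ptprm, a receptor phosphatase that binds its like on neighbouring cells, was at 4.21 and 5.33 (difference 1.03, SD 0.79), with 34 of 38 probesets higher. Its difference was 0.90 over the 30 probesets bright in both arrays, and the other 8 were dim with DMSO. Myct1, a membrane protein gene switched on early in endothelium, had 3 probesets and was not counted as measured. They read 5.74, 6.25 and 3.76 with DMSO and 7.30, 7.57 and 6.40 with the inhibitor, and each was higher.

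The remaining 3 surface genes had differences near 0. Robo4, the endothelial roundabout receptor that stabilises vessels, was at 4.47 and 4.41 (difference -0.10, SD 0.80), with 7 of 18 probesets higher and 11 lower. Mcam, the adhesion molecule CD146, was at 4.99 and 4.84 (difference -0.09, SD 0.55). Cyyr1, a membrane protein rich in cysteine and tyrosine, was at 4.77 and 4.65 (difference -0.18, SD 0.77). The sign of Robo4 turned to 0.06 with a filter at the 75th percentile, and that of Cyyr1 turned in 4 alternatives, reaching 0.17 as a mean over probesets.

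The G protein-coupled receptors differed among themselves. Adgrl4, an adhesion receptor also called ELTD1, was at 4.13 with DMSO and 6.27 with the inhibitor (difference 2.03, SD 1.11), and 13 of 15 probesets were higher. The other measured members of its family, Adgrl1, Adgrl2 and Adgrl3, differed by 0.46, -0.02 and -0.04. S1pr1, the receptor through which sphingosine 1-phosphate tightens the endothelial barrier, was at 6.33 and 7.21 (difference 0.82, SD 0.49), short of the size rule although all 6 probesets were higher. Adgrf5, or GPR116, was at 3.88 and 3.90 (difference 0.14, SD 1.23). Of its 24 probesets 9 were dim and the rest went both ways, from -1.33 to 3.29, and the gene stood at 1.14 with a filter at the 75th percentile and at -0.0026 over probesets bright in both arrays. Aplnr, the apelin receptor, had 3 probesets, at 6.58, 7.55 and 7.51 with DMSO and at 6.28, 7.86 and 7.27 with the inhibitor, which differed by -0.30, 0.31 and -0.24.

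Among the secreted proteins, Egfl7, which endothelium deposits in its matrix, was at 6.36 with DMSO and 7.79 with the inhibitor (difference 1.63, SD 0.75), with 10 of 11 probesets higher. Mmrn2, the matrix protein multimerin 2 that binds the receptors CD93 and CLEC14A, was at 3.11 and 4.49 (difference 0.75, SD 1.03). It was the only one of the 31 with a DMSO level below the table's median. Over the 4 Mmrn2 probesets bright in both arrays the difference was 0.01, and the other 5 were bright with the inhibitor alone.

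Both enzymes that make vasoactive products had higher values. Ece1, which processes endothelin, was at 6.41 with DMSO and 7.71 with the inhibitor (difference 1.08, SD 0.63, 18 of 21 probesets higher), and at 0.89 as a mean over probesets. Nos3, the endothelial nitric oxide synthase, was at 4.36 and 5.86, and all 21 bright probesets were higher (difference 0.93, SD 1.22). The Nos3 probesets fell into unequal groups: 5 differed by between 2.87 and 3.56, and the other 16 by between 0.16 and 1.71. As a mean over probesets the difference of Nos3 was 1.38, which passes the size rule. Other genes in the pathways of these enzymes were counted by the same rule. Of all measured genes, 1.72% were higher by it and 0.563% lower. The lists are too short to read the counts as a result about the pathways. Of 13 measured genes around nitric oxide other than Nos3, none was higher, and Gucy1a1, a subunit of the nitric oxide receptor, was lower (-1.39). Of 7 measured genes around endothelin other than Ece1, Edn1, the endothelin 1 precursor gene, was higher (1.24) and Kel, a peptidase gene of red cells that also cleaves endothelin precursors, was lower (-1.17).

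**Figure D3:**
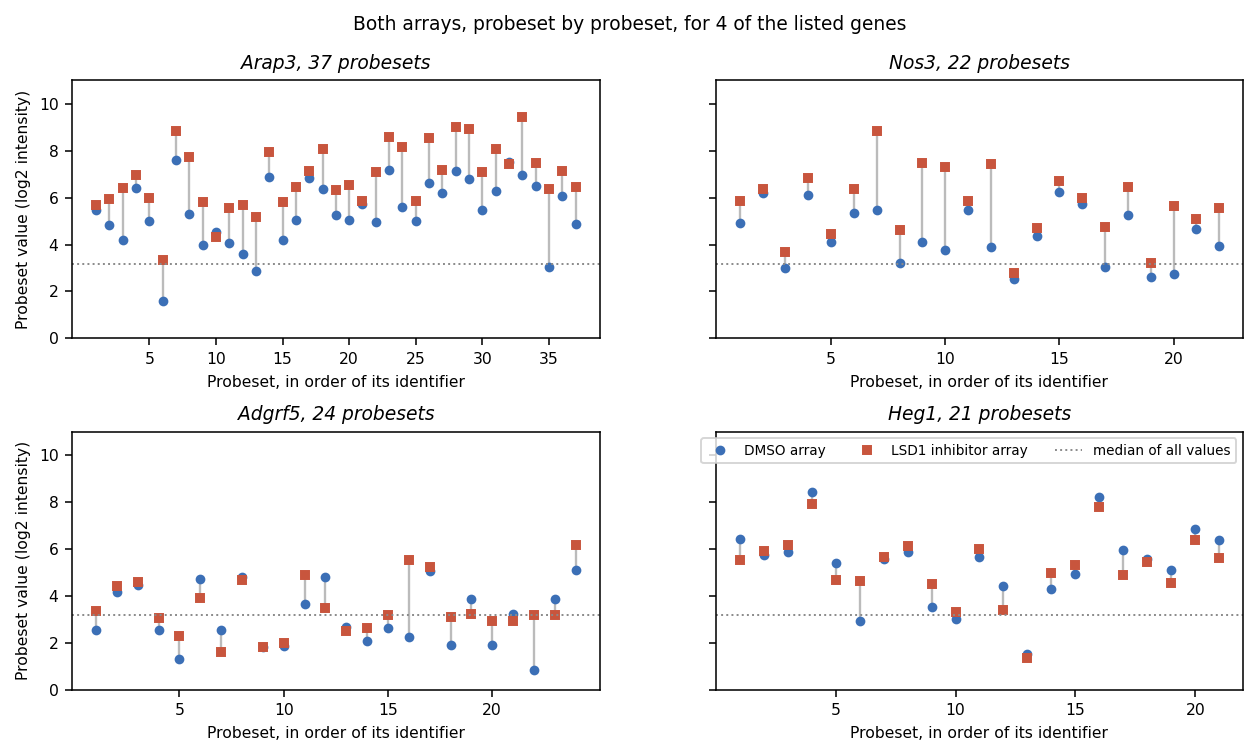
Value of each probeset (log2 intensity) in the DMSO array (circle) and the inhibitor array (square) for Arap3, Nos3, Adgrf5 and Heg1, in the order of the probeset identifiers; the dotted line is the table's median value. Arap3 is higher along nearly all of its 37 probesets, Nos3 differs by at least 2.87 at 5 probesets and less at the others, and Adgrf5 and Heg1 have probesets on both sides.

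Of the 5 measured genes of junction and small GTPase signalling, 4 were higher. Arhgef15, an exchange factor of small GTPases, was at 4.87 with DMSO and 6.34 with the inhibitor (difference 1.61, SD 0.75), and all 20 bright probesets were higher. Arap3, a GTPase-activating protein for Arf proteins, was at 5.47 and 6.96 (difference 1.51, SD 0.79, 35 of 37 probesets higher). Fgd5, an exchange factor of Cdc42 that also marks blood stem cells, was at 4.47 and 5.94 (difference 1.32, SD 1.15), with 22 of 24 probesets higher. None of the listed and measured relatives of these 3 genes passed the size rule. For so few genes that is near the shares of all measured genes, 1.72% higher and 0.563% lower. Arhgef16, Arhgef19 and Ngef differed by -0.12, -0.08 and -0.06, and Arap1 and Arap2 by 0.14 and 0.43. Fgd1, Fgd2, Fgd3, Fgd4 and Fgd6 lay between -0.29 and 0.75.

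Rasip1, an effector of the GTPase Rap1 that is held at endothelial junctions by HEG1, was at 6.24 and 8.06 (difference 1.23, SD 0.87, 11 of 14 probesets higher). It was at 1.85 with odd-ranked and at 0.76 with even-ranked probesets alone. Heg1 itself, a transmembrane partner of the cerebral cavernous malformation (CCM) proteins, was at 5.61 and 5.49 (difference -0.03, SD 0.72), with 10 probesets higher and 10 lower. Besides Rasip1 and Heg1, none of 15 other measured genes of the Rap1, CCM and HEG1 pathway passed the size rule. That is near the share of all measured genes, of which 1.72% were higher and 0.563% lower. The median of the 15 was 0.08. Map3k3, a kinase that the CCM proteins hold in check, was nearest to the rule at 0.96.

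The adaptor and cytoskeletal genes held 1 higher gene of 4 measured. She, an SH2-domain adaptor, was at 4.51 with DMSO and 6.10 with the inhibitor (difference 2.18, SD 1.61), with 8 of 9 bright probesets higher and the ninth at -1.58. Its measured relatives Shb, Shd and Shf differed by 0.34, 0.17 and 0.54. Kank3, an ankyrin repeat protein, was at 5.16 and 5.86 (difference 0.77, SD 0.88), and Afap1l1, an actin filament-associated protein, at 5.03 and 6.29 (difference 0.60, SD 1.09). For Afap1l1 the gap between the levels is wider than the median paired difference, and its probesets reached from -2.11 to 2.38. Ushbp1 was at 3.73 and 4.15 (difference 0.31, SD 0.86), and it turned to -0.18 with a filter at the 75th percentile. Palmd, palmdelphin, had 3 bright probesets of 9, which differed by 0.05, -0.13 and 0.34, and it was not counted as measured.

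Both transcription factors were higher in most probesets. Bcl6b, a zinc finger repressor related to BCL6, was at 3.72 with DMSO and 5.42 with the inhibitor (difference 1.32, SD 1.05), with 8 of 9 probesets higher. Bcl6 itself differed by 0.53 (SD 1.31). Hhex, a homeobox factor of early endothelium, blood and endoderm, was at 5.81 and 6.98 (difference 0.98, SD 0.36). All 5 Hhex probesets were higher, and as a mean over probesets the gene passed the size rule at 1.09.

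The family relatives of these genes were described in the same way. Of 49 listed relatives 44 were measured, and none was higher or lower past the size rule. Of all measured genes 1.72% were higher and 0.563% lower, so none among 44 is near those shares. The same shares stand beside the short lists below. Their differences ran from -0.93 for Mmrn1 to 0.75 for Fgd6, with a median of 0.03. In the defining endothelial markers, which are other genes with endothelial expression, 5 of 14 were higher (Cdh5, Flt1, Esam, Erg and Ramp2) and none lower, at a median of 0.94. Around protein C and thrombomodulin, leaving out Procr and Thbd described above, 1 of 8 other measured genes was higher, Tfpi, a clotting inhibitor, at just over the threshold (1.002). In the sphingosine 1-phosphate pathway without S1pr1, 1 of 9 was lower, Mfsd2b, a transporter of that lipid in red cells and platelets (-1.06). In the apelin pathway without Aplnr, 1 of 6 was higher, the arrestin gene Arrb2 (1.18), and of 10 measured Slit and Robo genes other than Robo4 none passed.

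**Figure D4:**
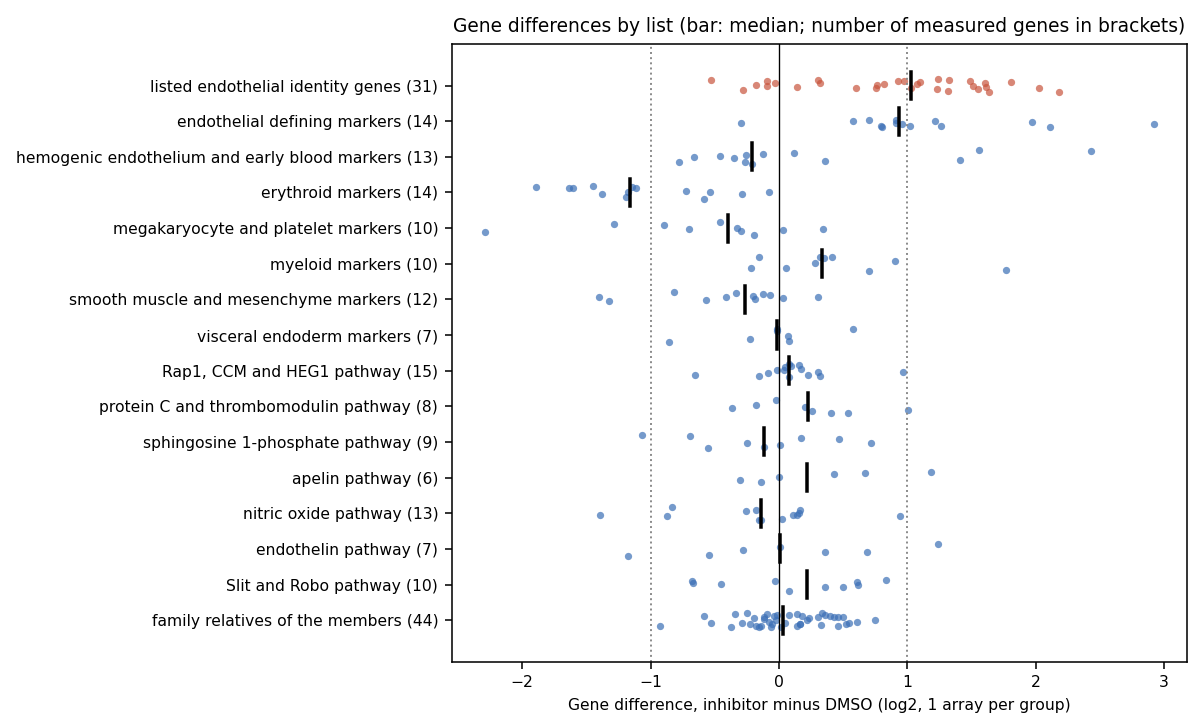
Difference (inhibitor minus DMSO, log2) of each measured gene in the 31 endothelial identity genes and in 15 other lists, with a black bar at the median and dotted lines at 2-fold. The endothelial identity genes and the defining endothelial markers have medians of 1.03 and 0.94, the family relatives 0.03 and the erythroid markers -1.16.

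Markers of other cell types were described beside these genes. Besides the erythroid markers (9 of 14 lower, median -1.16), 2 of 10 measured megakaryocyte and platelet markers were lower and none higher, at a median of -0.39 and summed linear intensities of 918.2 with DMSO and 548.7 with the inhibitor. In the smooth muscle and mesenchyme list 2 of 12 were lower, at a median of -0.27 and sums of 2863 and 1991. Acta2, at the highest level of that list, did not pass the size rule (log2 levels 11.06 and 10.46, difference -0.41). In the myeloid list 1 of 10 was higher (median 0.33, sums 252.2 and 343.5), and in the visceral endoderm list none of 7 passed (median -0.01, sums 129.6 and 115.8). The defining endothelial markers summed to 952.1 with DMSO and 2961 with the inhibitor. Most of that rise came from Cdh5 and from Ramp2, which had log2 levels of 5.84 and 9.62. Of the 13 hemogenic and early blood markers, Gfi1 (2.43), Gfi1b (1.56) and Gata2 (1.41) were higher and none lower, 5 were above 0, and the median was -0.21. Their sums were 2227 and 2768, and Gfi1b alone had log2 levels of 8.41 and 9.93. The part of the cell makeup in the differences of the endothelial identity genes was not tested.

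The position of the genes was also compared. In the RefSeq order of protein-coding genes, 28 measured genes that are not listed here lie next to the 16 higher genes. The median of these neighbours was 0.10, and 3 of them were higher and none lower, where 1.72% of all measured genes were higher. The 3 were Notch1, the Notch receptor gene beside Egfl7 (1.38), Pcdh1, a protocadherin gene beside Arap3 (1.66), and Slc16a13, a transporter gene beside Bcl6b (1.07). Among the 63 measured neighbours of all listed genes, the same 3 were higher and none was lower, at a median of 0.06. These 3 neighbours were named after their values were seen.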

How the data were processed

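Total RNA of 2 CD41-sorted samples was measured on 1 Affymetrix array each. The deposited table, whose summarisation and normalization by the authors are not given in the sources read, holds 1 value per probeset and array, read as log2 intensity from its range (0.157 to 13.5). At equal rank the arrays' values lie within 0.085 of each other. The table ends at 1048575 probesets, which is where a spreadsheet would cut it off, so probesets beyond it were not analysed here. Of these, 270105 carry 1 gene symbol, 5737 carry several and were left out, and 772733 carry none. Older symbols were updated through the RefSeq table of GRCm38.p6. Values were used as deposited, and genes were summarised as medians over bright probesets with Python 3.11.15 and pandas 2.3.3, in code tested on simulated data. A fold is 2 to the power of the difference. No p-value could be computed, as each group has 1 array. The genes, the lists and the rule for naming genes (all 36 genes, list genes past the size rule, and Cdh5, Pecam1, Kdr and Itga2b) were chosen with earlier results of these data known. Relatives, neighbours, markers and genes near the threshold named outside that rule were picked to accompany them. The naming rule was not followed in full. In the erythroid, megakaryocyte, smooth muscle and myeloid lists, most genes past the size rule were counted but not named. The probesets' build is not given in the sources used here, so promoter coordinates are RefSeq's alone.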

Additional observations from a re-analysis of the deposited data

How the results depend on the processing

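The listed genes were recomputed under 16 alternative settings, 2 of them chosen after seeing the data (probesets bright on the mean of both arrays, or in both). The number of higher genes ran from 11 of 25 measured, with the brighter or the even-ranked probesets alone, to 22 of 31 with the 1.5-fold threshold. Both of these probeset choices left Cd93, Plvap and Ecscr unmeasured. Among all measured genes, 169 of 11427, 201 of 10350 and 882 of 15087 were higher in these settings, in that order. With probesets bright in both arrays, 14 of 29 listed genes were higher, against 163 of 13485 genes. Between 25 and 35 genes were measured, depending on the setting. The number of lower genes was 0 in all 16, and the median difference ran from 0.91 to 1.12. In the 11 settings that changed the difference of any listed gene, all 318 recomputed differences lay within 1 SD over the gene's probesets of the reported value. That measure is wide and the settings reuse the same probesets, so it does not show stability. Adgrf5 ran from -0.0026 to 1.14 and She from 1.19 to 3.16. None of the 16 higher genes changed sign. Of these, 11 passed the size rule in every alternative that measured them, which was 10 of the 16 for Cd93 and 12 for Plvap and Ecscr. In 5 of the 16 settings no listed gene's difference changed, so passes in those add no support. Ptprm failed the size rule in 6, Thsd1 and Rasip1 in 2 each, and Procr and Ece1 in 1 each. Genes with 4 to 6 bright probesets have the least support, and no setting replaces a second array. No paired analysis was possible because each group holds 1 array.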
